A study of Mus musculus with 5 samples.

Results

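The mitochondrial respiratory chain genes were described in GFP+ cells sorted from E17.5 mouse lungs. Genes were taken by symbol, as those beginning Ndufa, Ndufb, Ndufc, Ndufs, Ndufv, Sdha to Sdhd, Uqcr, Cox4 to Cox8 or Atp5 with a probe set of a single gene. This gave 94 genes of 18193, each read from its probe set with the highest mean. Of the 94 genes, 82 encode subunits. The other 12 begin with the same letters but encode assembly factors (8 named Ndufaf and 4 named Sdhaf), and were counted apart.

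Complexes I to IV of the inner mitochondrial membrane pass electrons from NADH and succinate to oxygen, and complexes I, III and IV pump protons as they do so. Complex V, the ATP synthase, uses the proton gradient to make ATP. Most subunits are encoded in the nucleus, and a few of complexes I, III, IV and V by mitochondrial DNA. Several subunits of complex IV, cytochrome c oxidase, exist as a broadly expressed isoform and as an isoform known mainly from muscle, testis or lung. In multiciliated cells ATP is the fuel of the axonemal dyneins that move the cilia, and mitochondria gather beneath the apical membrane.

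The study profiled ciliated cells as they differentiate in the embryonic airways. FOXJ1-GFP mice, in which the promoter of the ciliated cell regulator Foxj1 drives GFP, were mated with out-bred ICR mice, GFP+ lungs were selected at E17.5 and dissociated with trypsin and EDTA, and GFP+ cells were collected by flow cytometry. All 5 arrays belong to this 1 group, with the genotype FOXJ1-GFP and no other allele or agent named, so the measurements are levels in these cells and not changes between conditions. The samples are labelled biological replicates, but the sources used here do not say how many embryos or litters each holds, and p-values measure only the spread between these 5 samples. Earlier progenitors of the lung tip were not analysed here.

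Values are log2 signals, so a difference of 1 is a doubling of the signal. A gene was called above background where its mean exceeded 7.95, the level under which 95% of 99 genes of other tissues and of odorant, taste and vomeronasal receptors had their means, with an adjusted p under 0.05 in limma. By this rule 58.1% of all 18193 genes were above background. Pearson's r between pairs of arrays, across probe sets, was 0.987 to 0.994. All 20 ciliated cell markers measured were above background, with Foxj1 at 12.82 ± 0.08 (SD, n = 5). Of markers of other lung cells, 12 of 12 endothelial and 10 of 10 alveolar type 2 markers were also above background. The counts were 10 of 15 for mesenchymal (66.7%), 8 of 16 for pericyte (50%) and 7 of 12 for leukocyte markers (58.3%). Beside the 58.1% of all genes, these partial counts alone do not show such cells. In sorted bulk RNA, fewer cells of a type and less RNA per cell cannot be told apart.

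Some promoters of these genes are shown because nuclear regulators of the respiratory chain, the GABP complex and NRF1, are known to bind letters found there. RefSeq windows on GRCm38.p6 were matched for 78 of the 94 genes, and the 250 bases before the start were searched on both strands. The letters CCGGAAG, of the kind bound by GABP and other ETS factors, were in 16 of 83 windows (19.3%), against 6.91% of all 32851 windows. The letters GCGCATG, of the kind bound by NRF1, were in 10 of the 83 windows, against 3.24% of all windows. The letters AAGATGG, of the kind bound by YY1, were in 1 of the 83 (1.2%), against 4.49%. A match is a description of the sequence and not a bound site, and a window can hold 2 overlapping matches. None of the 4 matched windows of tissue-restricted isoforms held any of the motifs, and 4 windows are too few to compare with the shares above. Shown here are Cox6a1 (chr5:115348959-115349208, minus strand), a broadly expressed isoform, and the isoform pair Cox6b1 (chr7:30626115-30626364, minus strand) and Cox6b2 (chr7:4753095-4753344, minus strand). Capitals mark CCGGAAG (on the other strand CTTCCGG) and GCGCATG (on the other strand CATGCGC), which overlap each other in Cox6a1.
Cox6a1: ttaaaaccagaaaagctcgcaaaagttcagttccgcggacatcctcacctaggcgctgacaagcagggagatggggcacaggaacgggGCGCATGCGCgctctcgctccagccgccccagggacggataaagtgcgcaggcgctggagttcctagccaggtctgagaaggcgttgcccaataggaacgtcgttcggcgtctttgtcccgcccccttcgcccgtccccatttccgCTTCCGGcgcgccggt
Cox6b1: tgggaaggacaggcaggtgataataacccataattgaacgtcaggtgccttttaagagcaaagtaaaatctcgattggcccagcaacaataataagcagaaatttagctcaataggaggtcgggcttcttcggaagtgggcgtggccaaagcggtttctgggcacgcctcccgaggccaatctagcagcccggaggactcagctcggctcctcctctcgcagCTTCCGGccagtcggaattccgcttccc
Cox6b2: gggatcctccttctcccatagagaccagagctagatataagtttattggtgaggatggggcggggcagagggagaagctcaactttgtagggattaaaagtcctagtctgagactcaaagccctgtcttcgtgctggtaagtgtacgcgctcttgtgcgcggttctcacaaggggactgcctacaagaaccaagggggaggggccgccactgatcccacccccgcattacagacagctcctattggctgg
The promoter of Cox6a1 held 1 match to CCGGAAG and 2 to GCGCATG, that of Cox6b1 held 1 to CCGGAAG, and that of the testis isoform Cox6b2 held neither. No other broadly expressed isoform with a matched window held CCGGAAG, and besides Cox6a1 only Atp5g2 held GCGCATG. The promoters shown therefore do not stand for a difference between broadly expressed and tissue-restricted isoforms.

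Nearly all respiratory chain genes were above background. The count was 87 of 94 (92.6%), against 58.1% of all genes, made up of 75 of 82 subunits and 12 of 12 assembly factors. By complex it was 32 of 34 subunits for complex I, 4 of 4 for complex II, 8 of 8 for complex III, 14 of 19 for complex IV and 17 of 17 for complex V. The median level of the 82 subunits was 12.64. Among the 74 subunits other than tissue-restricted isoforms, 72 were above background, and the exceptions were Ndufb1 and Ndufb4 of complex I.

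**Figure D1:**
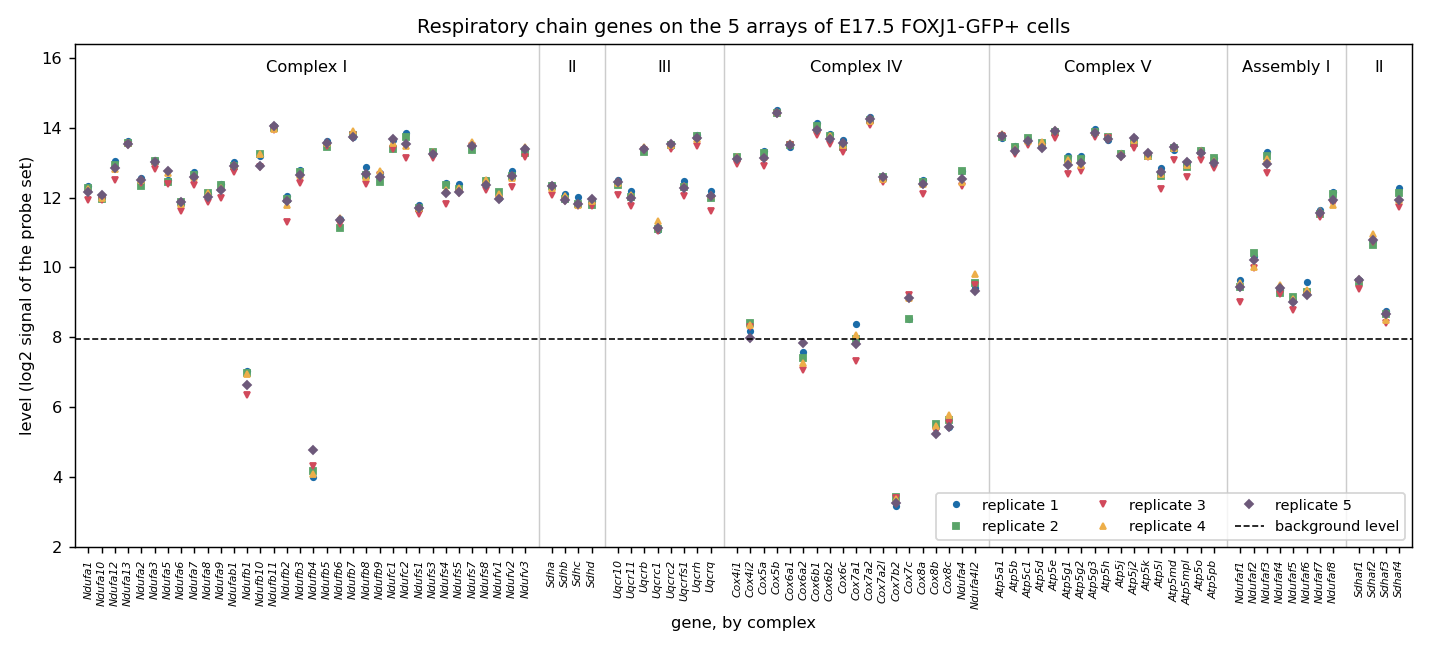
Level of each of the 94 genes on the 5 arrays (log2 signal of 1 probe set per gene, 1 symbol per array), grouped by complex, with the background level of 7.95 as a dashed line. The subunits and assembly factors lie above the line with 7 exceptions, of which 5 are tissue-restricted isoforms of complex IV.

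In complex I, the NADH dehydrogenase, the subunits of the catalytic arm named here were all above background. Ndufv1, the subunit that binds NADH and flavin, ran from 11.95 to 12.15 over the arrays, and Ndufv2, an iron-sulfur subunit beside it, from 12.31 to 12.75. The iron-sulfur subunit Ndufs1 ran from 11.54 to 11.80. Ndufs7 and Ndufs8, which carry the iron-sulfur clusters towards ubiquinone, ran from 13.36 to 13.58 and from 12.22 to 12.52, and the core subunit Ndufs3 from 13.14 to 13.32. Over the 32 subunits of complex I above background, the mean levels lay between 11.31 (Ndufb6) and 14.00 (Ndufb11), and the largest adjusted p in limma was 9.78e-09.

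Ndufb1 and Ndufb4, accessory subunits of the membrane arm, were not above background on their own probe sets. Ndufb1 read 7.04, 6.98, 6.36, 6.96 and 6.62 on replicates 1 to 5, with no array above 7.95. Ndufb4 read 4.01, 4.18, 4.30, 4.09 and 4.76, far under it on every array. Each of these genes had a single probe set of its own. Another pair of probe sets, annotated jointly to Ndufb4 and its copies Ndufb4b and Ndufb4c, read 12.39 ± 0.22 and 11.13 ± 0.34 (SD, n = 5) and were both above background (adjusted p = 1.24e-09 and 6.34e-08 in limma). These shared probe sets cannot tell apart which of the copies is transcribed. Ndufa11 and Ndufs6 were also read only together with a copy (12.87 ± 0.19 and 12.22 ± 0.15 on the brightest shared probe set) and are not among the 94 genes.

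Complex II, succinate dehydrogenase, which joins the TCA cycle to the chain, had all its subunits above background. The flavoprotein Sdha read 12.36, 12.33, 12.07, 12.27 and 12.32, and the iron-sulfur subunit Sdhb 12.11, 11.97, 11.89, 12.03 and 11.94. Its membrane anchors Sdhc and Sdhd had means of 11.84 ± 0.10 and 11.86 ± 0.09 (SD, n = 5). Within each gene the 5 arrays differed by 0.29 or less, far less than their distance from the background level.

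Complex III, the cytochrome bc1 complex, takes electrons from ubiquinol to cytochrome c. Its core proteins Uqcrc1 and Uqcrc2 had mean levels of 11.13 ± 0.12 and 13.48 ± 0.05 (SD, n = 5). The Rieske iron-sulfur protein Uqcrfs1 read 12.48, 12.30, 12.04, 12.34 and 12.27. All 8 genes were above background with adjusted p no larger than 2.04e-09 in limma. Cytochrome c itself, which carries the electrons on, was above background as the somatic gene Cycs (11.43 ± 0.15) and not as the testis gene Cyct (7.05 ± 0.28).

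In complex V, all 17 genes were above background with means between 12.62 (Atp5l) and 13.87 (Atp5e). They include the genes of the catalytic F1 head. Atp5a1 (alpha) had a mean of 13.76 ± 0.04, Atp5b (beta) of 13.38 ± 0.10, Atp5c1 (gamma) of 13.63 ± 0.07, Atp5d (delta) of 13.53 ± 0.08 and Atp5e (epsilon) of 13.87 ± 0.09 (SD, n = 5). The 3 genes for subunit c of the membrane ring, Atp5g1, Atp5g2 and Atp5g3, which encode the same mature protein, were above background side by side (12.99 ± 0.20, 13.00 ± 0.17 and 13.86 ± 0.09). Levels were not ranked between genes, since each probe set has its own brightness.

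Complex IV held all 5 tissue-restricted isoforms that were not above background. Of the subunits without a tissue-restricted form, Cox5a, which lies on the matrix side, read 13.32, 13.27, 12.90, 13.15 and 13.13. Cox5b, a zinc-binding subunit, read 14.50, 14.43, 14.41, 14.45 and 14.43, the steadiest of the respiratory chain genes above background (SD 0.03). Cox6c had a mean of 13.49 ± 0.13. Cox7c, also above background, is described with the spread between arrays. Cox7b had no probe set named as its own.

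Ubiquitous and tissue-restricted isoforms differed in how many were above background. All 10 ubiquitous isoforms measured were above background, against 3 of 8 tissue-restricted isoforms (37.5%) and 58.1% of all genes. The count of 3 rested on the level. It was 1 of 8 at the 99th percentile of background genes, where 34.8% of all genes were above. With the level set by receptor genes alone it was 7 of 8 (87.5%), near the 83.6% of all genes. The ubiquitous ones were Cox4i1, Cox6a1, Cox6b1, Cox7a2, Cox7a2l, Cox8a, Ndufa4 and the 3 genes of ATP synthase subunit c. Cox4i1 read 13.11, 13.16, 12.96, 13.17 and 13.11, Cox6a1 13.45, 13.52, 13.51, 13.57 and 13.51, and Cox8a 12.51, 12.45, 12.11, 12.39 and 12.38. Cox7a2 had a mean of 14.21 ± 0.09, its relative Cox7a2l, known for its part in supercomplexes, of 12.54 ± 0.06, and Ndufa4, first assigned to complex I and now counted with complex IV, of 12.57 ± 0.18 (SD, n = 5).

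The muscle isoforms were not above background. Cox6a2, the heart and skeletal muscle form of Cox6a, read 7.57, 7.42, 7.06, 7.27 and 7.83, below 7.95 on every array. Cox8b, found in heart, skeletal muscle and brown fat, read 5.44, 5.51, 5.33, 5.45 and 5.24. Cox7a1, of the same tissues, read 8.37, 7.95, 7.33, 8.06 and 7.80, so that replicates 1 and 4 stood above the background level and the mean was 0.05 under it (adjusted p = 1.00 in limma). Among markers of heart muscle 7 of 21 were above background, among those of skeletal muscle 1 of 18 (Acta1). The mean level of the heart list was at most 7.32 on any array and that of the skeletal list ran from 5.67 to 5.83. Of the 7 heart markers above background, 3 were highest on replicate 1 as Cox7a1 was (Myl4, Myl7 and Tnnt2), where 31.4% of all genes above background were, and 2 were lowest there (Myh7 and Tnni3). The others were Actc1, highest on replicate 2, and Ryr2, highest on replicate 3. The atrial light chain Myl7 read 10.23, 9.37, 8.51, 9.21 and 8.30, and the troponin Tnni3 read 11.34, 11.45, 12.70, 12.56 and 12.20, so these markers did not share an order of arrays. Myl2, Myh6 and Ckm were not above background. Of these, Myh6 read 8.50, 7.49, 6.45, 7.71 and 6.65, the same order of arrays as Cox7a1. Myl2 was highest on replicate 4 and Ckm on replicate 2. Tnnc1, which was not called above background either, was highest on replicate 1 (9.02). The part of heart muscle RNA in the Cox7a1 values was not tested.

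Of the testis isoforms, Cox6b2 stood apart. It read 13.83, 13.75, 13.52, 13.76 and 13.67, a mean of 13.71 ± 0.12 (SD, n = 5) and 5.75 above the background level (adjusted p = 1.39e-10 in limma). No array of Cox6b2 came near the background level. Its somatic partner Cox6b1 read 14.12, 14.05, 13.78, 13.97 and 13.95, so both forms of this subunit, which faces the intermembrane space, were present on all arrays. Cox6b2 has a single probe set here, whose identifier carries no mark of shared targets, and reading of Cox6b1 RNA by that probe set was not tested. The other testis forms were not above background. Cox7b2 read 3.17, 3.41, 3.41, 3.38 and 3.24, and Cox8c 5.43, 5.63, 5.55, 5.77 and 5.43.

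Germ cell markers were counted beside Cox6b2. Of 24 such genes 6 were above background, and the mean level of the list ran from 6.56 to 6.69 over the arrays. Those above were Odf2 (12.82 ± 0.05), a protein of sperm outer dense fibres and of centrioles, the chaperone Hspa2 (12.40 ± 0.09), Spata18 (11.57 ± 0.14), Oaz3, Ldhc and Sycp3. The other 18 were not above background. They include the protamine Prm2 at 5.20 ± 0.14, the transition protein Tnp1 at 5.00 ± 0.14 and the fibrous sheath protein Akap4 at 3.69 ± 0.11 (SD, n = 5). Prm1, at 8.08 ± 0.13, was 0.12 above the level and did not pass (adjusted p = 0.14 in limma).

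Testis forms of other energy enzymes were mostly not above background. Pdha2 of pyruvate dehydrogenase, Pgk2 and Gapdhs of glycolysis, the adenine nucleotide carrier Slc25a31 and Cyct were not above background, at means of 3.70, 4.72, 6.27, 7.20 and 7.05. Ldhc, the testis lactate dehydrogenase, was above background at 8.50 ± 0.22 in limma. The somatic counterparts Pdha1, Pgk1, Slc25a4, Slc25a5, Cycs, Ldha and Ldhb were all above background, between 11.43 and 14.01.

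The isoforms known from low oxygen and pericytes were both above background. Ndufa4l2, a paralogue of Ndufa4 induced in low oxygen, read 9.42, 9.55, 9.51, 9.81 and 9.33, a mean 1.57 above the background level (adjusted p = 3.59e-07 in limma). Cox4i2, the lung isoform of Cox4, read 8.17, 8.42, 8.29, 8.37 and 7.98, a mean 0.29 above it (adjusted p = 0.0100 in limma). Against genes of other tissues alone as background, Cox4i2 stood at -0.21 and was not called. Both genes were lowest on replicate 5, where 12.3% of all genes above background were, while 9 of 10 ubiquitous isoforms were lowest on replicate 3, where 33.7% of all genes above background were. The pericyte list had 8 of 16 genes (50%) above background, beside 58.1% of all genes, and its mean level ran from 7.85 to 8.17. Of these 8, 5 were lowest on replicate 5 (Pdgfrb, Higd1b, Gucy1a1, Gucy1b1 and Postn), 2 on replicate 1 (Notch3 and Mcam) and Rgs5 on replicate 2. Higd1b read 8.32, 8.60, 8.51, 8.59 and 7.84, while Rgs5 read 8.13, 8.10, 8.50, 9.16 and 8.98, with replicate 5 among its higher arrays. Other markers of the list, Abcc9, Kcnj8, Cspg4 and Vtn, were not above background. Being lowest on replicate 5 was not particular to pericyte markers. Among genes above background, 4 of 6 club cell markers, 6 of 17 TCA cycle genes and 2 of 10 mesenchymal markers were lowest there. None of the 12 endothelial and 10 alveolar type 2 markers were. The part of pericyte RNA in Cox4i2 and Ndufa4l2 was not tested.

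**Figure D2:**
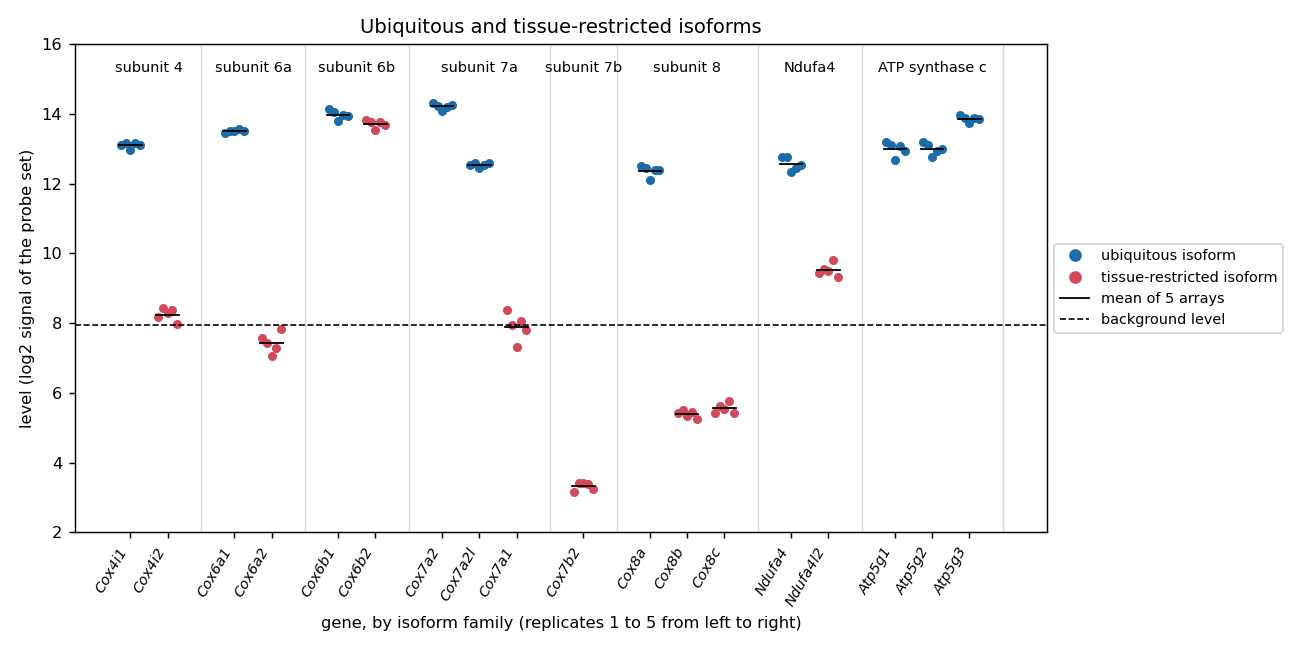
Levels of the 18 genes of isoform families (log2 signal, 5 points per gene for replicates 1 to 5, black bar for the mean), with ubiquitous isoforms in blue, tissue-restricted isoforms in red and the background level dashed. All 10 ubiquitous genes lie above the line, while of 8 tissue-restricted genes Cox6b2, Ndufa4l2 and Cox4i2 do.

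Values were close between arrays. The median SD of the 75 subunits above background was 0.12, beside 0.15 over all 10578 genes above background and 0.10 over those with means above 12. The SDs ran from 0.03 to 0.34. The steadiest were Cox5b, Atp5a1, the ATP synthase stalk gene Atp5h, Cox6a1 and the membrane-part gene Atp5k, with SDs of 0.03 to 0.05. The 10 genes with the largest SDs were Cox7c, the complex I subunits Ndufb2, Ndufc2 and Ndufs4, the assembly factors Ndufaf1, Ndufaf3 and Sdhaf4, Uqcrq of complex III and Atp5l and Atp5g1 of complex V, with SDs of 0.20 to 0.34. Ndufb2 read 12.06, 11.95, 11.29, 11.80 and 11.91, and Ndufc2 13.86, 13.73, 13.13, 13.49 and 13.54. In both, as in 9 of these 10 genes, replicate 3 was the lowest array and replicate 1 the highest.

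Cox7c, a small subunit of complex IV, went the other way. It read 8.53, 8.53, 9.20, 9.14 and 9.13, so that replicates 1 and 2 were low and did not overlap with the others. Its mean of 8.91 ± 0.34 was 0.95 above the background level (adjusted p = 1.66e-04 in limma), a call lost where that probe set, marked as shared between transcripts, was left out. Its only other probe set read 6.18 ± 0.32 and was not above background.

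Replicate 3 was the lowest array for most of the chain. This count was chosen after the values were seen. Of the 75 subunits above background, 60 (80.0%) were lowest on replicate 3, where 33.7% of all genes above background were (the background share). By contrast, 4 were lowest on replicate 1 (20.5% of all genes), 7 on replicate 2 (18.4%), 0 on replicate 4 (15.0%) and 4 on replicate 5 (12.3%). The subunits were highest on replicate 1 in 42 cases (31.4% of all genes), on replicate 2 in 7 (16.3%), on replicate 3 in 1 (20.7%), on replicate 4 in 17 (22.8%) and on replicate 5 in 8 (8.78%). The mean deviation of the 75 subunits from their own means was 0.08, 0.02, -0.16, 0.04 and 0.01 on replicates 1 to 5. Over all genes above background it was -0.03 on replicate 3, and over those with means above 12 it was -0.02. The pattern ran through each complex, with 25 of 32 subunits of complex I lowest on replicate 3, 4 of 4 of complex II, 7 of 8 of complex III, 10 of 14 of complex IV and 14 of 17 of complex V, and through the assembly factors, with 9 of 12. The 15 subunits that were not lowest on replicate 3 include Atp5a1, Atp5h, Cox6a1, Cox7c, Cox4i2, Ndufa4l2, Ndufs7 and Uqcrb. Without replicate 3 the median SD of the subunits was 0.070 (0.12 with all arrays), while that of all genes above background was 0.13 (0.15 with all arrays). Since replicate 3 was already known as the lowest array for most subunits, a fall in their SD without it adds no further evidence.

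**Figure D3:**
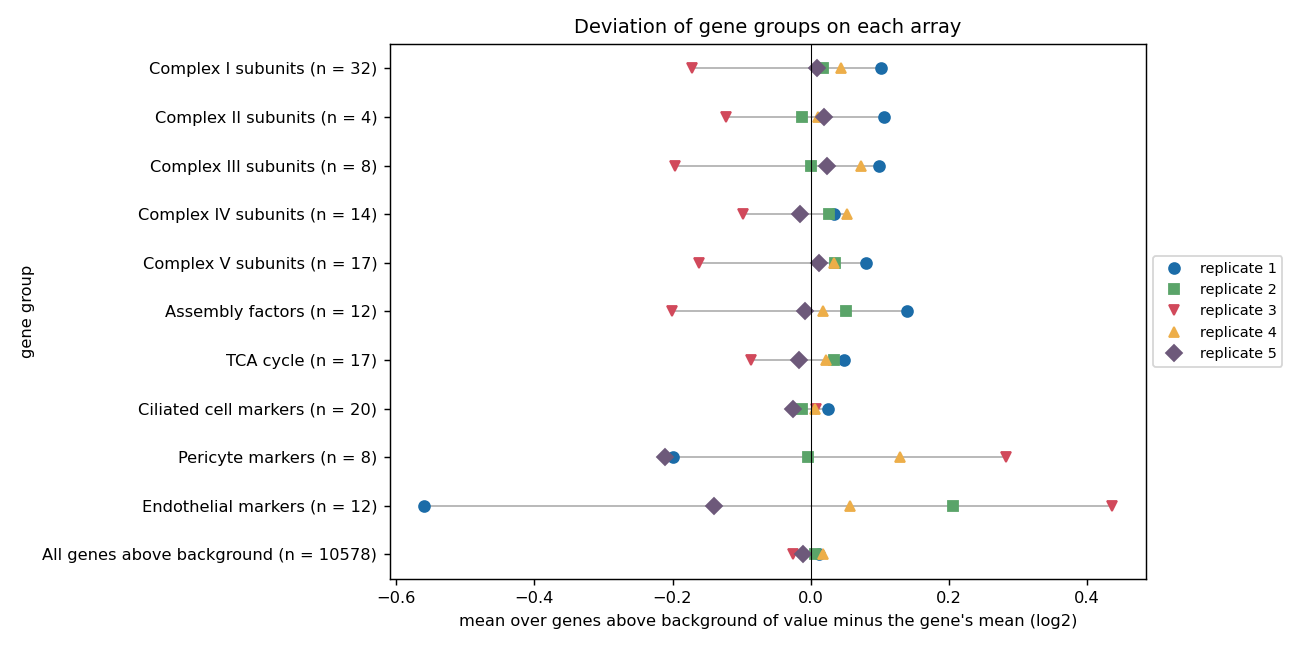
Mean deviation of each gene group from its genes' own means on the 5 arrays (log2, 1 symbol per array), over genes above background. Replicate 3 is lowest for each of the 5 complexes (-0.10 to -0.20) and near 0 for the ciliated cell markers (0.01).

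Other lists differed in how they moved over the arrays. Genes of the TCA cycle had a mean deviation of -0.09 on replicate 3, other assembly factors of complex IV of -0.11, and those of complexes I, III and V of -0.15. The 9 genes above background in the list of electron carriers, nucleotide carriers and energy enzymes stood at -0.15 as well. Of these 9, 8 were lowest on replicate 3, where 33.7% of all genes above background were. Ldha, Ldhb and Pgk1, which are outside the respiratory chain, were among the 8. Ciliated cell markers stood at 0.01 and transcriptional regulators of mitochondrial genes at 0.03. Endothelial markers were low on replicate 1 (-0.56) and high on replicate 3 (0.44), mesenchymal markers likewise (-0.29 and 0.36). Alveolar type 2 markers were low on replicate 1 (-0.65) and high on replicate 5 (0.74).

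The control probe sets also differed between arrays. The poly-A RNAs spiked into the samples before amplification read, as the mean of 4 3′ probe sets, 8.98, 9.09, 10.45, 9.80 and 9.61 on replicates 1 to 5. Replicate 3 had the highest value and replicate 1 the lowest. The difference between the 3′ and the 5′ control probe set of Gapdh, a measure of how complete the labelled RNA is, was 1.02, 1.03, 1.43, 1.25 and 1.14, again highest on replicate 3. For Actb it was 0.61, 0.51, 0.68, 0.72 and 0.67. The part of RNA input, RNA quality and other cell types in the values of replicate 3 was not tested.

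**Figure D4:**
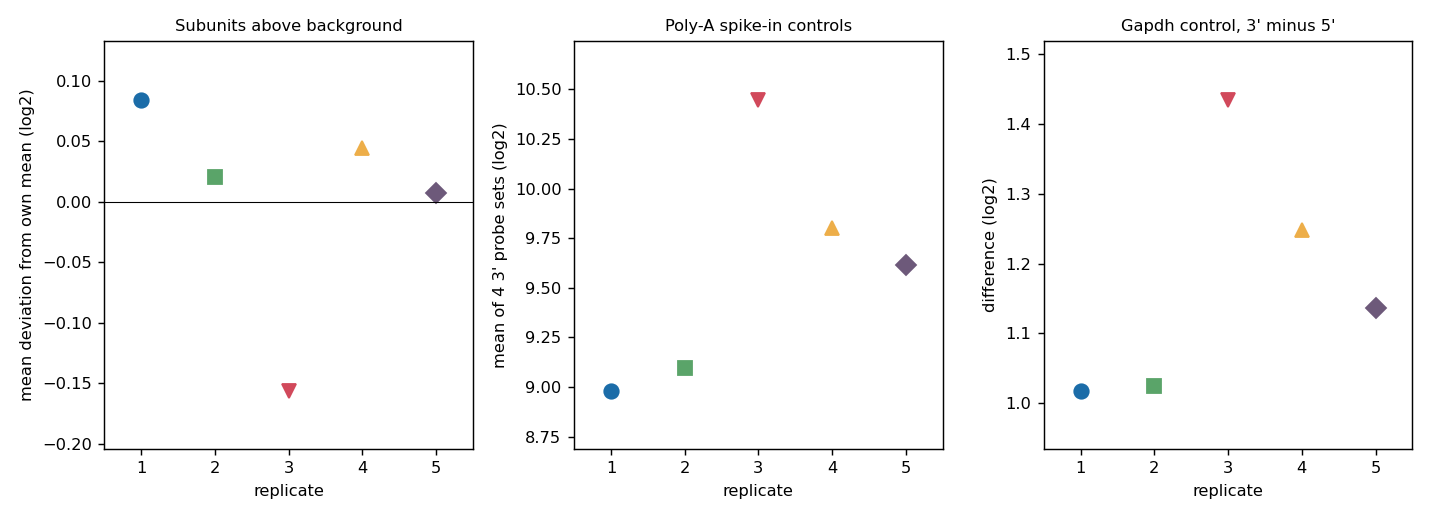
Mean deviation of the 75 subunits above background (left), mean of the poly-A spike-in controls (middle) and the 3′ minus 5′ difference of the Gapdh control (right), all in log2 units, on replicates 1 to 5. Replicate 3 is the lowest for the subunits (-0.16) and the highest for the spike-ins (10.45) and for Gapdh (1.43).

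The rest of the mitochondrial machinery was measured from lists of other genes of the pathway. Assembly factors and chaperones of complex IV were above background for 18 of 19 genes, with Surf1 at 12.02 ± 0.22, the copper chaperone Cox17 at 12.26 ± 0.08, the haem enzyme Cox10 at 10.59 ± 0.09 and Coa4 (6.49 ± 0.19) the exception. Those of complexes I, III and V were above for 15 of 16, without Lyrm7 (7.49 ± 0.41). TCA cycle genes were above for 17 of 17, with citrate synthase Cs at 13.26 ± 0.04. Of 15 regulators of mitochondrial genes 14 were above, while Ppargc1b (6.82 ± 0.39) was not. Those above include the coactivator Ppargc1a (10.09 ± 0.30) and the mitochondrial DNA factor Tfam (9.94 ± 0.11). They also include the factors Gabpa (10.55 ± 0.23) and Nrf1 (8.67 ± 0.28), known to bind letters of the kind shown above. Binding was not measured here. The ATP synthase inhibitor Atpif1 was above background at 13.45 ± 0.06. None of the 13 protein genes of mitochondrial DNA was named on a probe set, so that part of the complexes was not measured.

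Assembly factors within the symbol rule were all above background. Ndufaf3 had a mean of 13.06 ± 0.23, Ndufaf1 of 9.41 ± 0.24 and Sdhaf4 ran from 11.73 to 12.28. Sdhaf3 (8.60 ± 0.15) was the nearest of them to the background level, 0.65 above it (adjusted p = 6.36e-05 in limma).

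Calls rested on the choice of probe set for part of the genes. The 94 genes had 185 probe sets of their own, 41 genes with 1 and 53 with several. Of the 53, 34 had all probe sets above background, 17 had probe sets on both sides and Cox6a2 and Cox8c had none above. Those on both sides were Atp5g1, Atp5g2, Atp5j2, Cox5b, Cox7c, Cox8a, Ndufa3, Ndufa10, Ndufa12, Ndufab1, Ndufb9, Ndufc2, Ndufs4, Ndufs8, Sdha, Sdhaf3 and Uqcrq. The means of the probe sets of 1 gene differed by 1.92 in the median and by 9.95 at most, in Cox5b, whose 6 probe sets lay between 4.49 and 14.44. The brightest probe set of Ndufab1, the mitochondrial acyl carrier protein, had a mean of 12.90 and the dimmest of 7.12. By contrast, the probe sets of Cox6b1 differed by 0.42, those of Cox7a2l by 0.26 and those of Sdhd by 0.04.

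**Figure D5:**
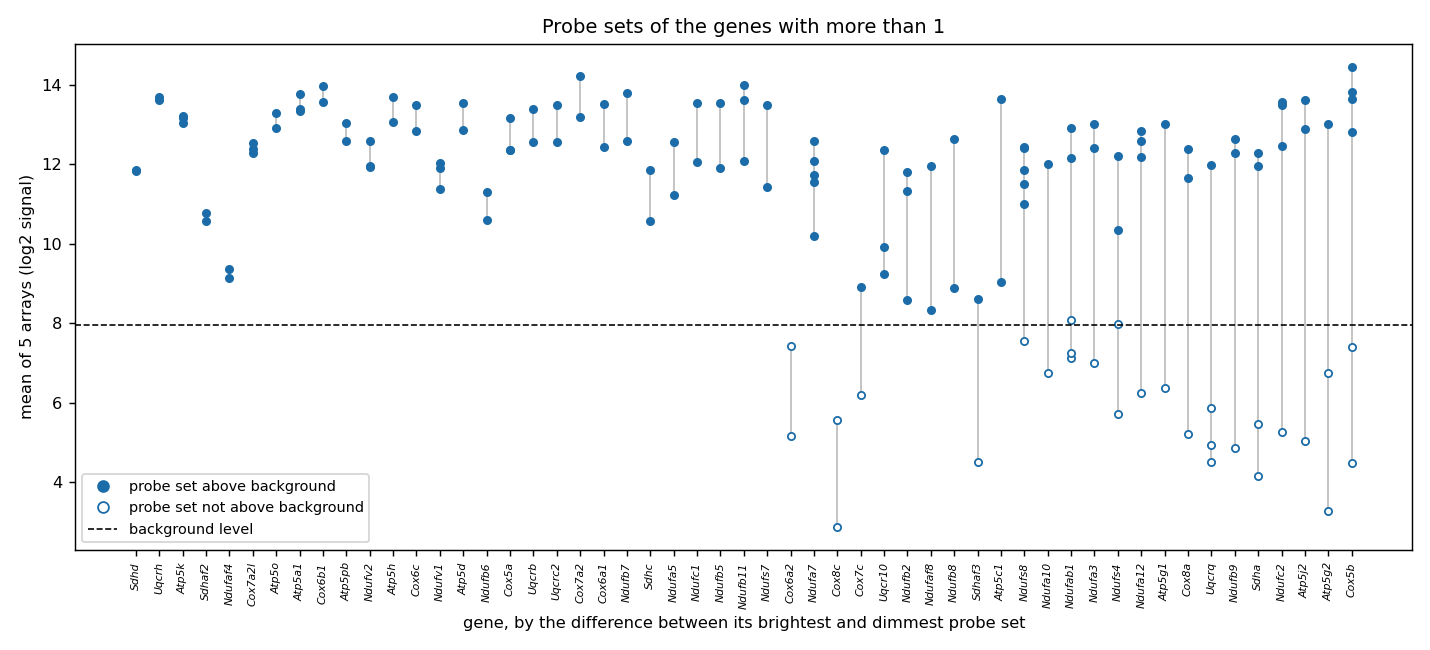
Mean over 5 arrays (log2 signal) of every probe set of the 53 genes with more than 1, ordered by the difference between the brightest and the dimmest, with filled points for probe sets above background and the level of 7.95 dashed. In 17 genes the points fall on both sides of the line, and the spread reaches 9.95 in Cox5b.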

How the data were processed

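GFP+ cells sorted from E17.5 FOXJ1-GFP lungs were measured on 5 Affymetrix arrays of 1 group. The authors deposited log2 values, a single one for each probe set on each array, after amplification, labelling and normalization; the scale was read from the values, and the sources used here name no normalization method. The values were used as deposited, and the number of arrays limits the precision. Probe sets were named through the platform annotation, where 34945 had 1 gene, 932 several and 9160 none here; 99.4% of identifiers of the first kind were found in the RefSeq gene table, and 0 symbols changed. An intercept was fitted to each of 45037 probe sets that are not controls with limma 3.58.1 in R 4.3.3, and its mean was tested one-sided against the background level, with Benjamini-Hochberg adjustment over all of them. Of the 99 background genes (31 receptor genes and 68 genes of other tissues), 4 were themselves called above it. The step was tested on simulated data. Other calculations used Python 3.11.15, numpy 2.4.6 and pandas 2.3.3.

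The genes and lists were chosen with earlier results of these data known. Named were all isoform family members, genes not above background, the 10 genes above background with the largest and the 5 with the smallest SD, core subunits, and genes with probe sets on both sides of the level; others, such as list members and genes at the ends of ranges, were named after their values were seen. Alternatives were the mean of a gene's probe sets, leaving out probe sets with shared or mixed targets (_s_at, _x_at), quantile normalization, median centring, a call by every array exceeding the level, the 99th percentile, receptor or other-tissue genes alone as background, a level of 5, a filter on low probe sets, and leaving out each replicate.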

Additional observations from a re-analysis of the deposited data

Results flagged for a closer look

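Each of the 94 genes was searched for an array far from the other 4, by the gap to the nearest array as a share of the gene's range (Dixon's test), and 7 genes had one. Chance alone gives about 1 in 20 genes. In 5 of the 7 genes replicate 3 was the low array. Atp5md, a small membrane subunit of ATP synthase, read 13.07 on replicate 3, where the mean of the others was 13.41. Atp5o, the stalk subunit that confers oligomycin sensitivity, read 13.08 against 13.33. The complex I subunits Ndufa3 and Ndufa6 read 12.81 against 13.05 and 11.60 against 11.84, and the complex II assembly factor Sdhaf1 read 9.37 against 9.63. The others were high: Ndufb7 of complex I read 13.90 on replicate 4, where the mean of the others was 13.76, and Sdhc of complex II read 12.02 on replicate 1, where it was 11.80.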

How the results depend on the processing

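The count of subunits above background was 75 in each fit that left out 1 replicate, and 68 to 80 under the other alternatives. Ubiquitous isoforms stayed at 10 except with the mean of a gene's probe sets, where 9 were above. With the 99th percentile of background genes (a level of 10.04), 1 tissue-restricted isoform, 5 assembly factors and 6325 of all genes were above, against 3, 12 and 10578. With receptor genes alone as background (4.75) or a level of 5, 7 of 8 tissue-restricted isoforms were above, beside 83.6% and 81.3% of all genes. Leaving out a replicate kept that count at 3, and the median SD of the subunits ran from 0.070 (without replicate 3) to 0.13. The count of subunits lowest on replicate 3, chosen after the data were seen, is given with the share of all genes above background. It was 65 of 75 with median centring (42.6% of all genes) and 54 of 75 with quantile normalization (30.4%). With the mean of probe sets it was 61 of 75 (35.9%), and without _s_at and _x_at probe sets 56 of 71 (35.2%). The share of all genes was 33.7% in the main fit.

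Of 94 genes, 76 kept their call and direction under every alternative in which they had a value. Without _s_at and _x_at probe sets, 78 of 82 subunits and 11 of 12 assembly factors had one. Under the filter on low probe sets, 77 of 82 subunits were tested. Those that changed side of the level are given by their difference from it. With the mean of probe sets, Atp5g2 (-0.28), Cox7c (-0.41), Sdhaf3 (-1.40) and Uqcrq (-1.13) were below. Without _s_at and _x_at probe sets, Cox7c (-1.41), Ndufa12 (-1.34) and Uqcrq (-1.73) were below and Cox7a1 (0.32) above. With the 99th percentile, Cox4i2 (-1.79), Cox7c (-1.13), Ndufa4l2 (-0.51), Ndufaf1 (-0.62), Ndufaf4 (-0.68), Ndufaf5 (-1.03), Ndufaf6 (-0.70), Sdhaf1 (-0.46) and Sdhaf3 (-1.44) were below. With receptor genes alone and with a level of 5, respectively, Cox6a2 (2.68 and 2.43), Cox7a1 (3.15 and 2.90), Cox8b (0.64 and 0.39), Cox8c (0.81 and 0.56) and Ndufb1 (2.04 and 1.79) were above. With genes of other tissues alone, Cox4i2 (-0.21) was below. Ndufaf2 with the 99th percentile and Sdhaf3 with genes of other tissues alone stayed above the level but lost their call. Cox7a1 ran from -0.14 (without replicate 1) to 0.14 (without replicate 3) when a replicate was left out, and stood at 0.02 without replicate 5. For Cox7a1 without replicate 3 or 5, the arrays averaged and the level both differ (7.90 and 7.91, against 7.95). Without replicate 5 the Cox7a1 mean stayed under the main level, and the change came with the lower level. The other changes come with the moved level or the probe sets chosen. The cause was otherwise not tested. No paired analysis was possible because all 5 arrays belong to 1 group.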

Other observations

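Brown fat, another tissue of Cox7a1 and Cox8b, was read through 8 marker genes. Of these, 2 were above background, Plin5, a lipid droplet protein, at 10.96 ± 0.12 and Cidea at 8.41 ± 0.41 (SD, n = 5). Ucp1, the uncoupling protein that defines brown fat, was not above background, at 4.99 ± 0.12. Cidea read 8.49, 8.86, 7.76, 8.61 and 8.36 on replicates 1 to 5, lowest on replicate 3.

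Probe sets shared by several genes gave further readings of the chain. A probe set of Ndufs5 and its pseudogene Ndufs5-ps read 13.20 ± 0.06, and one of Ndufab1 and Ndufab1-ps read 11.58 ± 0.15, both above background. A second probe set of Ndufa11 with Ndufa11b (5.20 ± 0.33), one of Ndufb2 with Adck2 (5.63 ± 0.24) and a pair of Ndufa13 with Yjefn3 (4.24 ± 0.20 and 6.92 ± 0.17) were not above background.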
